A study of Mus musculus with 2 samples.

Results

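The DNA replication and S phase genes were 40 genes taken by symbol from a fixed list, out of 22620 genes listed for both libraries, and all 40 were found in each. They were read in 2 libraries of single-cell RNA sequencing, 1 of primary tumours and 1 of lymph nodes (LNs) from C57BL/6J mice with tumours of EO771-HEVM3 cells, each holding the cells of 6 mice. The tumours were digested with collagenase I, collagenase III and hyaluronidase for longer than the LNs, which were digested with collagenase P, dispase and DNase, so tissue and digestion cannot be told apart. HEVM3 cells come from EO771, a breast cancer line of the mouse, by repeated in vivo selection for spread out of LNs through high endothelial venules (HEVs), the vessels by which lymphocytes enter LNs. No treatment or genetic change was named, and no label tied a cell to a mouse. Each tissue therefore counted as 1 sample, differences had no replicate check, and no test was run. All bracketed 95% intervals are exact Poisson intervals for levels, exact binomial splits for ratios or exact Clopper-Pearson intervals for shares, and they cover counting error only.

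The primary tumour library held 12427 cells with a median of 9161 unique molecular identifiers (UMIs, counted transcripts) per cell, and the LN library held 11617 cells with a median of 2630. The 40 genes took 2298 of every 1000000 UMIs (CPM) in the primary tumour and 2633 CPM in the LN, and 89% and 90.6% of cells had at least 1 UMI of them. After limits on detected genes and mitochondrial UMIs and the removal of doublets, 8756 and 9689 cells were kept. Cells were grouped into classes named from marker genes. The replication and mitosis genes were not among the variable genes used for clustering. Scores made from them were regressed out beforehand, so they still bore on the classes. A total of 31 cell barcodes occurred in both libraries among the kept cells. The upper limit on detected genes bore most on LN cancer and endothelial cells, which numbered 610 and 192 with it and 1308 and 393 when cells were clustered without it.

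Before a cell divides it copies its genome once, in S phase. MCM proteins are loaded on origins as an inactive helicase, and in S phase they are activated and joined by DNA polymerases, the sliding clamp, enzymes that supply nucleotides, and factors that rebuild chromatin and repair breaks behind the fork. Transcription factors of the E2F family switch on many of these genes at the end of G1, so their RNA is widely used to mark cells in or near S phase.

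The RefSeq promoter table for GRCm38.p6, with 250 bases before and 50 after each start, held 30 of the 40 genes. Of these, 13 (43.3%) contained at least 1 of the E2F words TTTCCCGC, TTTCGCGC, TTTGCCGC and TTTGGCGC on either strand, overlapping matches included, against 2.6% of all 27025 promoters in the table. Other replication genes had a match in 14 of 39 promoters (35.9%) and mitosis genes in 1 of 28 (3.57%). The words GGGCGG and CCAAT were each found in 21 of the 30 promoters (70%), against 38.2% and 41.1% of all promoters, and TATAAA in 4 (13.3%) against 15.7%. For comparison, GGGCGG was in 82.1% and 78.6% and CCAAT in 51.3% and 78.6% of the promoters of the other replication and the mitosis genes. In 5 of the 13 genes every E2F word lay before the start in both annotations used, and these are printed because they show the word in its surroundings, 5′ to 3′ on the strand of the gene, with the matched letters in capitals. They are 250 bases upstream of Mcm6 (chr1:128359706-128359955, minus strand), Mcm5 (chr8:75109259-75109508, plus strand) and Dtl (chr1:191575545-191575794, minus strand), and 48 bases around the match in Cdca7 (chr2:72476128-72476175, plus strand) and Pola1 (chrX:93632266-93632313, minus strand), all of GRCm38.
Mcm6: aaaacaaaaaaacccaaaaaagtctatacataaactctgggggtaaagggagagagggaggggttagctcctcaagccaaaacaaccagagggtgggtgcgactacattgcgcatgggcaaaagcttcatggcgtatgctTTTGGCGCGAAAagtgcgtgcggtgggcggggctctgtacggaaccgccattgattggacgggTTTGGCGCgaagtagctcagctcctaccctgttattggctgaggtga
Mcm5: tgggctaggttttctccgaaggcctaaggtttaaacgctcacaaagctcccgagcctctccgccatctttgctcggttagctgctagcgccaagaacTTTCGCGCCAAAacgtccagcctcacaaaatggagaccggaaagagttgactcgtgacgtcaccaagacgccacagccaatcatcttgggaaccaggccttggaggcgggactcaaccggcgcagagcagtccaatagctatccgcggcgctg
Dtl: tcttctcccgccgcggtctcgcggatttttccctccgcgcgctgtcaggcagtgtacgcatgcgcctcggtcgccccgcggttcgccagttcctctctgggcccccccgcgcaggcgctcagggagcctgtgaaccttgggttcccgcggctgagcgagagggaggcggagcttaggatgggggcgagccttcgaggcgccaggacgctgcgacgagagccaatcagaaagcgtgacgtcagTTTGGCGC
Cdca7: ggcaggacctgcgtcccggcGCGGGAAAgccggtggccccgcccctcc
Pola1: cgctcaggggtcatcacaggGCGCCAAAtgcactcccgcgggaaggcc
Mcm6 carried 3 matches, a pair of them overlapping, and Mcm5 carried 2 that overlapped. A match describes the letters in the window and neither a bound site nor a cause.

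Replication genes were highest in endothelial cells of the LN, in T cells of the primary tumour and in cancer cells of both sites, and lowest in neutrophils of both sites, monocytes of the primary tumour and plasmacytoid dendritic cells of the LN. Their summed level was 3726 CPM [3664 to 3788] in the 192 LN endothelial cells and 2773 CPM [2681 to 2867] in the 580 primary tumour T cells. Cancer cells followed at 2244 CPM [2223 to 2264] in the LN (610 cells) and 2055 CPM [2046 to 2064] in the primary tumour (6122 cells). LN T cells stood at 1538 CPM (3689 cells) and LN B cells at 1318 CPM (4663 cells). At the other end, LN neutrophils had 328 CPM [224 to 463] and primary tumour neutrophils 565 CPM [491 to 646]. Primary tumour NK cells, at 2049 CPM [1741 to 2396] from 26 cells, overlapped both cancer cell classes.

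A cell was called S phase high when at least 3 of 1000 UMIs drawn from it belonged to the 40 genes, which is a count and not a direct measure of cycling. Neutrophils, which do not divide, gave the background of 2.77% [0.269 to 10.4] in the primary tumour, from the 63 of 310 cells with at least 1000 UMIs. By this count 57.6% [50 to 65] of LN endothelial cells were S phase high, 34.7% [30.9 to 38.6] of LN cancer cells, 26.3% [22.3 to 30.7] of primary tumour T cells and 24.5% [23.4 to 25.6] of primary tumour cancer cells. Median depths were 15851, 35058, 1564 and 14066 UMIs per cell, and 15, 3, 129 and 83 cells were too shallow to be used. Without thinning the shares were 92.2%, 98.2%, 39.8% and 86.5%, which follow depth. Primary tumour T cells had a higher summed level but a lower share than LN cancer cells, so no order is read between these classes.

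LN T cells were S phase high in 15.7% [14.5 to 16.9] of cells, LN B cells in 10.1% [9.27 to 11], plasma cells in 13.2% [7.37 to 21.3] and primary tumour endothelial cells in 16.7% [7.34 to 30.6]. Macrophages of the primary tumour reached 5.04% [3.24 to 7.43] and monocytes 2.15% [0.913 to 4.25], within the interval of the neutrophils. RNA of the cancer cells was found in other classes, and the keratin Krt8 had 1747 CPM in primary tumour cancer cells, 827 CPM in neutrophils, 233 CPM in macrophages, 118 CPM in T cells and 355 CPM in endothelial cells of that library. In the LN, Krt8 had 1045 CPM in cancer cells and 15.5, 20.9 and 21.9 CPM in T, B and endothelial cells. The part of this RNA in the levels of the non-cancer classes was not tested.

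**Figure D1:**
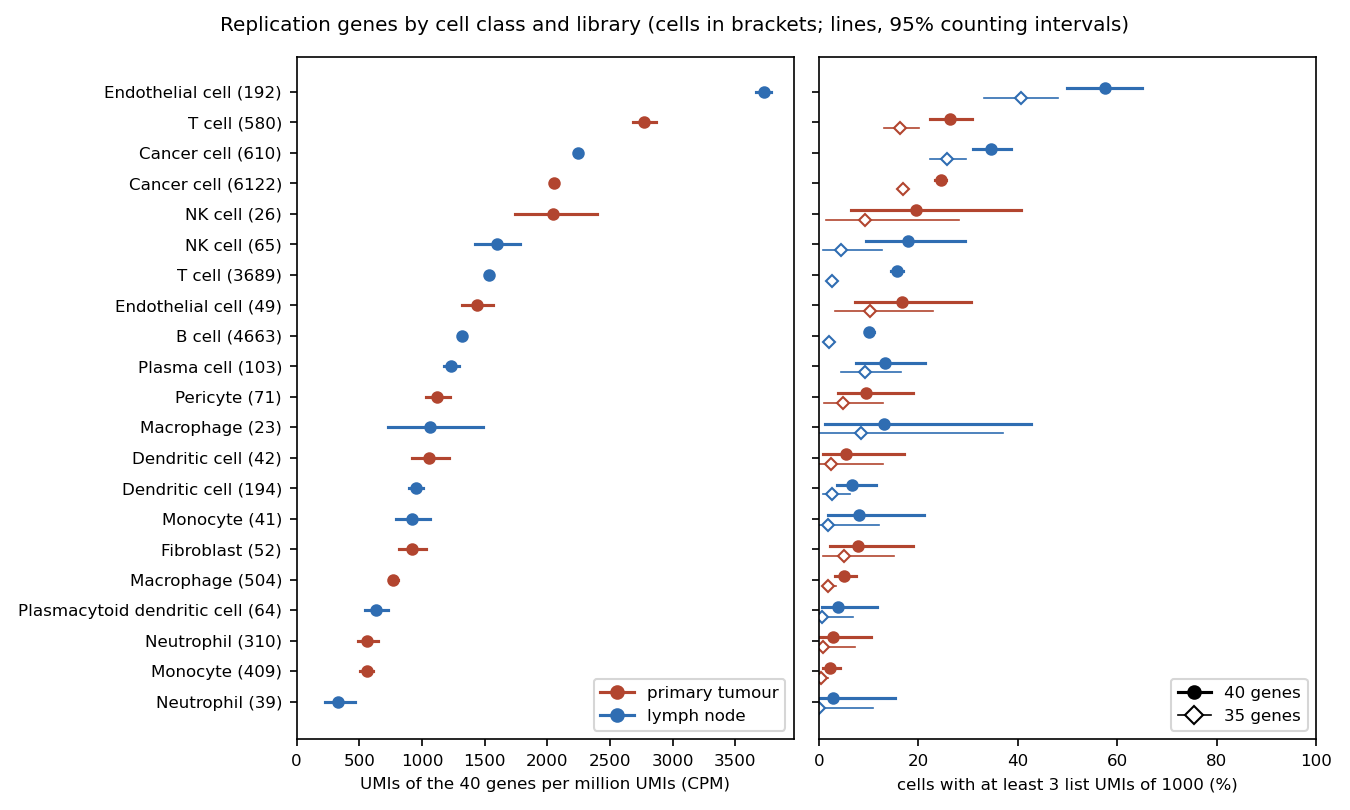
Summed level of the 40 genes in CPM (left) and the percentage of cells with at least 3 UMIs of the list among 1000 (right) for the 21 classes with at least 20 cells, in red for the primary tumour and in blue for the LN, with 95% counting intervals as lines and the number of cells in brackets. Open diamonds give the share for 35 genes, without Nasp, Slbp, Pcna, Atad2 and Usp1, which is 2.63% against 15.7% in LN T cells and 40.6% against 57.6% in LN endothelial cells.

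Gene by gene, 22 of the 40 had their highest level in LN endothelial cells among the 15 classes with at least 50 cells, 11 in primary tumour T cells, 4 in LN cancer cells and 1 each in primary tumour cancer cells, LN NK cells and LN plasmacytoid dendritic cells. Of all 12211 genes with at least 100 UMIs in these classes, 13.1%, 11% and 8.61% had their highest level in the first 3 classes. The highest level lay apart from all other classes by its interval for 12, 2 and 2 genes of the first 3 classes, against 4.14%, 1.33% and 2.71% of all genes, and for none of the other 3 genes. Which gene leads each role below is the gene with most UMIs in both libraries together.

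Among the MCM helicase genes, Mcm3 had 237 CPM [222 to 253] in LN endothelial cells, 134 CPM in LN cancer cells, 120 CPM in primary tumour cancer cells and 102 CPM in primary tumour T cells. LN T and B cells were alike at 52.7 and 51.9 CPM, and no UMI was seen in the 39 LN neutrophils, which allows up to 30.7 CPM. Mcm4 and Mcm7 were also highest in LN endothelial cells, apart from all other classes, at 112 and 167 CPM. Mcm6 was instead highest in primary tumour T cells, at 167 CPM [145 to 192] against 125 CPM [114 to 137] in LN endothelial cells. Mcm2 and Mcm5 stood at like levels in these classes, with 91.6 and 89.6 CPM for Mcm2 and 77.2 and 78.8 CPM for Mcm5.

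Among the genes that load and fire the helicase, Gmnn, which encodes geminin, the inhibitor of the loader Cdt1, was highest in LN cancer cells at 112 CPM [108 to 117]. It had 78.1 CPM in primary tumour cancer cells and 75.1 CPM [66.6 to 84.4] in LN endothelial cells. Ccne2, a cyclin that activates Cdk2 at the entry to S phase, had the same leading class, with 37.6 CPM in LN cancer cells, 27.7 CPM in primary tumour cancer cells and 16.7 CPM [12.8 to 21.3] in LN endothelial cells. These 2 genes were apart from all other classes in cancer cells of the LN. Cdc6, which brings MCM proteins to origins, and Cdc45 and Gins2, which activate them, were highest in LN endothelial cells at 28.8, 21.7 and 62.9 CPM, with intervals that overlapped those of the next class. Dtl, a substrate receptor for the destruction of Cdt1, ranged only from 47.3 to 54.6 CPM across the 4 leading classes.

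Of the polymerase and lagging strand genes, Pcna, the sliding clamp, was highest in primary tumour T cells at 373 CPM [340 to 409]. It had 232 CPM in primary tumour cancer cells and 202, 199 and 179 CPM in LN T, endothelial and cancer cells. Pcna was also present in classes with few S phase high cells, at 174 CPM in macrophages and 158 CPM in monocytes of the primary tumour. Pold3, an accessory subunit of polymerase delta, and Prim1, the catalytic subunit of primase, were apart in LN endothelial cells at 87.8 and 81.2 CPM, while Pola1, Fen1 and Rfc2 were highest in primary tumour T cells without being apart.

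For nucleotide supply, Rrm1, the large subunit of ribonucleotide reductase, was level across LN endothelial cells (138 CPM), primary tumour T cells (137 CPM) and primary tumour cancer cells (126 CPM). Its partner Rrm2, the small subunit, was not. It had 181 CPM [168 to 195] in LN endothelial cells, 111 CPM in primary tumour T cells and 93.1 CPM in LN plasma cells, but 40.7 and 29.8 CPM in cancer cells of the LN and primary tumour. Tyms, thymidylate synthase, had 118 CPM in LN endothelial cells and 54 CPM in LN cancer cells. Ung, which removes uracil from DNA, had 24.6 CPM [10.6 to 48.4] in LN plasmacytoid dendritic cells and 16.9, 14.8 and 11.6 CPM in LN endothelial, B and T cells, and these classes overlapped.

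The chromatin genes did not share a pattern. Atad2, a bromodomain ATPase, had 215 CPM [190 to 243] in primary tumour T cells, 188 CPM in LN T cells and 177 CPM in LN cancer cells, but 67.6 CPM in LN B cells. Nasp, a histone chaperone, had 401 CPM [381 to 422] in LN endothelial cells and 253 CPM in LN T cells, but 82 CPM in primary tumour T cells. Slbp, which binds the stem loop of histone mRNAs, had 259 CPM in LN endothelial cells, 222 CPM in primary tumour T cells and 157 CPM in LN T and B cells alike, and only 57 and 63.7 CPM in LN and primary tumour cancer cells. Hells, a chromatin remodeller, had 145 CPM [133 to 158] in LN endothelial cells, apart from all other classes, and 68.7 and 64.3 CPM in primary tumour cancer and T cells.

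For repair and checkpoint genes, Usp1, the enzyme that removes ubiquitin from Pcna, had 175 CPM [161 to 188] in LN endothelial cells and 109 CPM in primary tumour T cells, against 38.3 and 55.5 CPM in LN and primary tumour cancer cells. Tipin, a partner of Timeless at the fork, and Rad51ap1 were apart in LN endothelial cells at 125 and 44.9 CPM. E2f8, an atypical E2F that represses E2F targets, was the only gene with its highest level in cancer cells of the primary tumour, 29.6 CPM [28.5 to 30.7], followed by primary tumour T cells at 24.9 CPM [16.9 to 35.4]. LN endothelial cells, highest for the list as a whole, had 11.1 CPM of E2f8 [8 to 15].

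The remaining genes fell into several patterns. Clspn had 61.9 CPM [48.9 to 77.4] in primary tumour T cells, 58 CPM in LN cancer cells and 46.8 CPM in LN endothelial cells. Exo1, an exonuclease of mismatch and break repair, had 23.9 CPM in LN cancer cells and 22.5 CPM in LN endothelial cells, and Dscc1, part of an alternative clamp loader, had 15.9 and 16.7 CPM there. Uhrf1 was almost flat across the 4 leading classes, from 65.8 to 69.1 CPM. Cdca7, which recruits Hells, Wdr76 and Chaf1b were highest in LN endothelial cells at 57.9, 34.4 and 46.5 CPM, Ubr7 and the helicase gene Brip1 in primary tumour T cells at 40.2 and 16.9 CPM, and the helicase gene Blm in LN NK cells at 20.4 CPM [5.57 to 52.3].

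**Figure D2:**
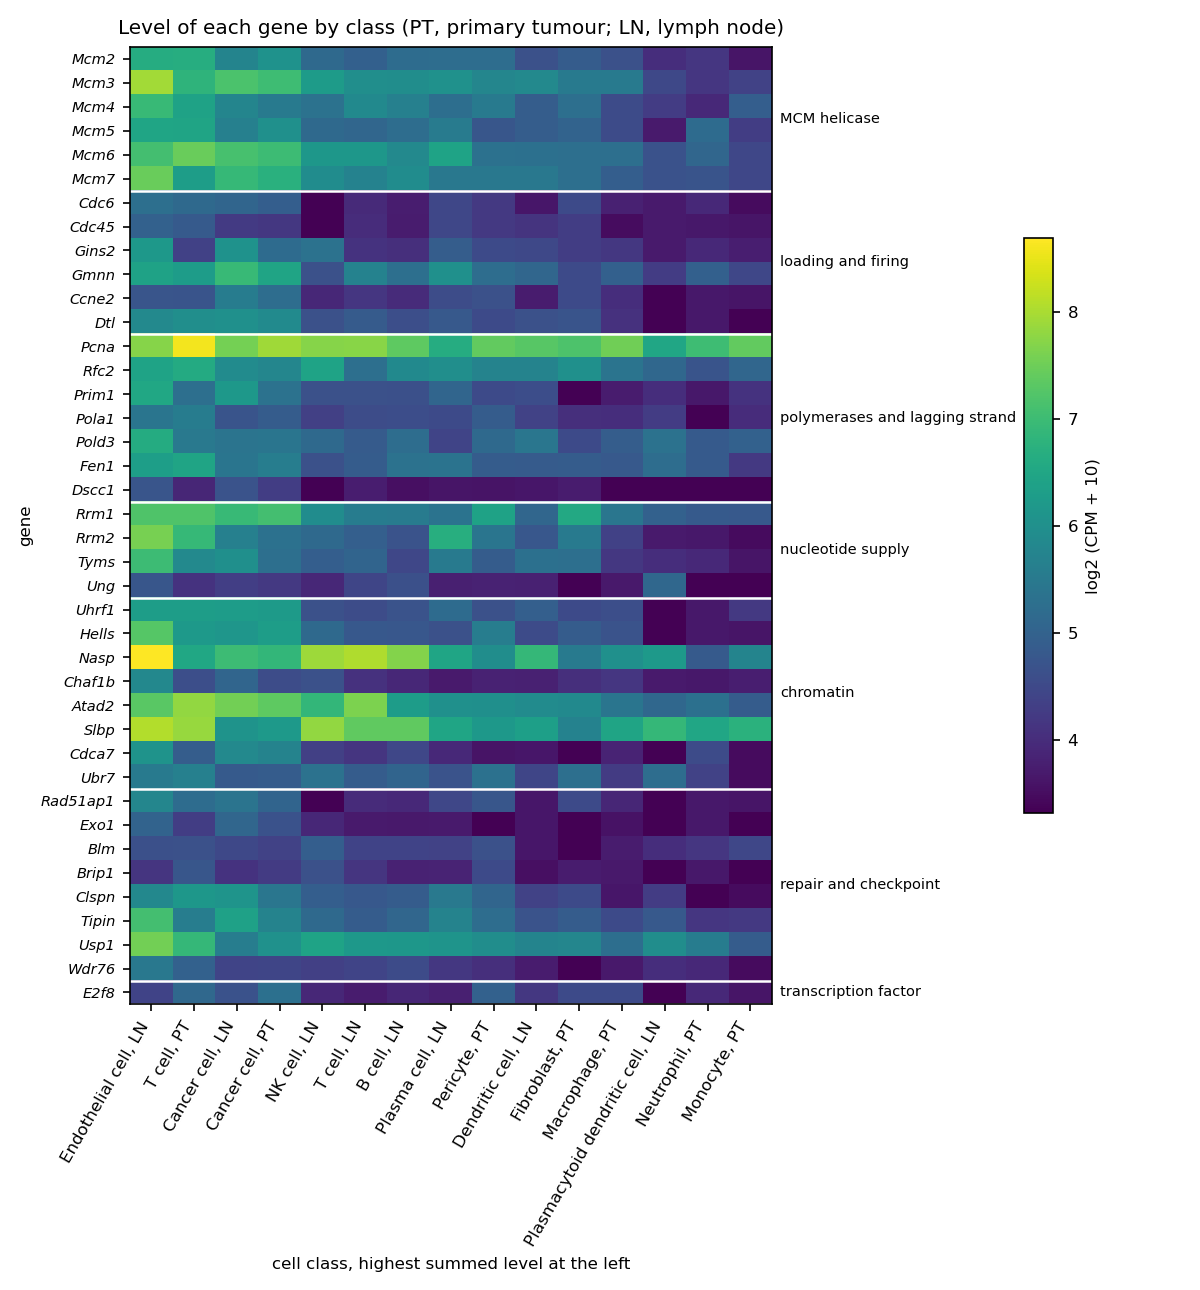
Level of each of the 40 genes (vertical axis, grouped by role) in the 15 classes with at least 50 cells (horizontal axis, ordered by summed level), on a colour scale of log2(CPM + 10). Most genes darken from left to right, while Pcna, Slbp and Nasp stay bright in LN T and B cells and Pcna is still at 158 CPM in primary tumour monocytes.

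The LN endothelial cells formed a single cluster, cluster 20, apart from 2 cells. Its leading genes included Glycam1 and Fut7, which high endothelial cells express. In the class, Glycam1, Chst4 and Fut7 had 1858, 507 and 557 CPM, against no UMI in the 49 primary tumour endothelial cells, which allows up to 8.2 CPM. General endothelial markers were lower than in the primary tumour, with Pecam1 at 142 against 998 CPM, Cdh5 at 159 against 1121 CPM, Emcn at 188 against 612 CPM, Kdr at 27.2 against 399 CPM, Cldn5 at 9.25 against 574 CPM and Flt1 at 28.6 against 1172 CPM and Vwf at 0.529 against 84.7 CPM, and only Egfl7 was at a like level (607 and 656 CPM). Hmga2, among the leading genes, had 445 against 5.47 CPM, and the p53 targets Mdm2 and Cdkn1a had 769 against 118 CPM and 1346 against 484 CPM. The general markers other than Egfl7 were thus all low against the primary tumour class, Kdr, Cldn5, Flt1 and Vwf most of all. The endothelial label is to be read with that limit. Endothelial cells were also sorted from LNs for single-cell sequencing in the study, and the labels do not say whether such cells entered this library.

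The share of S phase high cells had overlapping intervals in endothelial cells with more and with fewer of the HEV genes detected. Of the 47 cells with a UMI of at least 2 of Glycam1, Chst4 and Fut7, 60.2% [44.7 to 74.3] were S phase high, and of the other 145 cells, with 0 or 1 of them detected, 56.7% [47.8 to 65.3]. Summed levels were 3559 CPM [3458 to 3661] and 3817 CPM [3740 to 3895], which did not overlap, and median depths 29965 and 9904 UMIs. Of these cells 1 and 14 were too shallow for the shares. At the stricter cut of 5 UMIs in 1000, 30.7% [24 to 38] of the whole class remained. The mitosis genes had 3439 CPM in this class, against 1566 CPM in primary tumour endothelial cells.

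Among lymphocytes, high levels came from small clusters. Cluster 22, led by histone genes and the clamp partner Pclaf, held 63 primary tumour T cells and 75 LN T cells. In it the 40 genes reached 6267 CPM [6002 to 6541] in the primary tumour and 5531 CPM [5376 to 5689] in the LN, and 85.3% and 82.6% of cells were S phase high. No other cluster with at least 20 cells of a library was as high. Among B cells, cluster 25 (102 LN cells) had 4311 CPM [4173 to 4452] and 48.1% S phase high cells. Its leading genes included Rgs13 and Mef2b. In the 2 large B cell clusters, where Ighd was high, 8.24% and 11.3% of cells were S phase high. The clamp partner gene Pclaf and the histone gene H1f5 were among the 10 leading genes of both small clusters, so these levels are a description.

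A set of 5 genes carried much of the level in the other lymphocytes. Nasp, Slbp, Pcna, Atad2 and Usp1 together made up 64.5% of all UMIs of the list in LN T cells outside cluster 22 (802 of 1245 CPM) and 54.7% in LN B cells of the Ighd clusters (568 of 1037 CPM). Within cluster 22 they made up 30.5% in the LN and 31.9% in the primary tumour, in LN cancer cells 25.3%, in primary tumour cancer cells 29.8% and in LN endothelial cells 31.7%. The rest of the list was far lower outside the small clusters. In LN T cells, Mcm3 had 312 CPM inside cluster 22 and 33.7 CPM outside, Rrm2 223 and 5.82 CPM, Tyms 225 and 8.1 CPM, and Cdc6 71.2 and 0.759 CPM. For comparison, Nasp had 362 and 245 CPM, Atad2 343 and 176 CPM and Slbp 338 and 144 CPM. Without these 5 genes, a choice made after seeing the data, the S phase high share was 2.63% in LN T cells, 2.11% in LN B cells and 0.865% [0.00146 to 7.3] in primary tumour neutrophils, but still 16.4% in primary tumour T cells, 25.8% in LN cancer cells and 17% in primary tumour cancer cells. The shares of 2.63% and 2.11% lie within the neutrophil interval, which is wide. Leaving out genes that carry much of the list in these same cells lowers their shares by construction, so no background level is read from this. When cells were instead thinned to 2000 UMIs with a cut of 6, LN T and B cells had 7.52% and 5.17% and primary tumour T cells 39.3%, from the deeper 3145 of 3689, 1647 of 4663 and 194 of 580 cells.

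**Figure D3:**
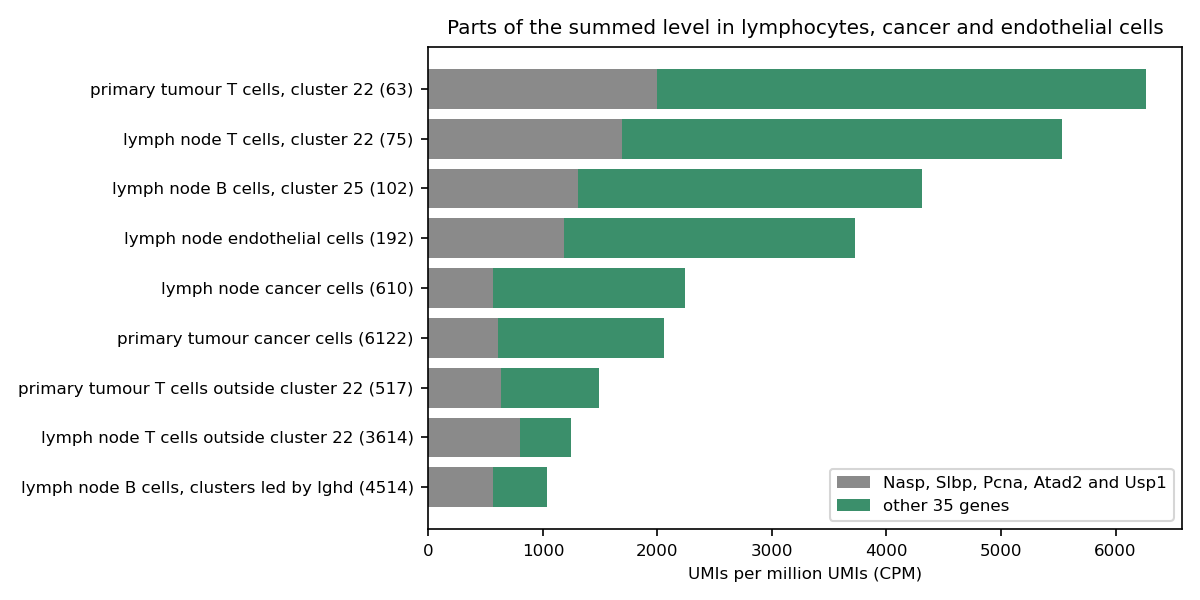
Summed level of the 40 genes in CPM (bar length) in 9 groups of cells, split into Nasp, Slbp, Pcna, Atad2 and Usp1 (grey) and the other 35 genes (green), with the number of cells in brackets. The grey part is 64.5% of the bar in LN T cells outside cluster 22 and 30.5% within it.

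In T cells of the 2 sites, 29 of the 31 replication genes measured had a lower level in the LN, and Nasp and Ung a higher one. Of the 31 genes that reached 100 UMIs in a library, 17 were more than 2-fold lower in LN T cells and 1 was more than 2-fold higher, while 19.8% of 7252 genes measured in these cells were lower and 5.98% higher by that much. The median log2 ratio of LN over primary tumour was -1.03 for the 31 genes and -0.33 for all 7252, so most genes were lower in the LN. Of the 31 genes, 3 lay above the median of all genes. Rrm2 had 20.7 CPM in the LN and 111 CPM in the primary tumour (log2 ratio -2.43 [-2.73 to -2.12]), Uhrf1, which directs maintenance of DNA methylation, 13.8 and 69.1 CPM (-2.33) and Mcm2 21.3 and 91.6 CPM (-2.11). Nasp had 253 and 82 CPM, a log2 ratio of 1.62 [1.34 to 1.92], while that of Ung, 0.60 [-0.29 to 1.83], rested on 9 UMIs in the primary tumour. Cluster 22 was 63 of 580 T cells in the primary tumour and 75 of 3689 in the LN, and without it 7 of 24 genes measured were more than 2-fold lower, against 19% of 7002 genes, and the median was -0.54 against -0.31 for all genes. Mitosis genes had a median of -2.15 over 20 genes measured.

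T cells were also split by receptor genes, with shares from cells of at least 1000 UMIs only. CD8 T cells numbered 340 in the primary tumour and 1290 in the LN, of which 36 and 1 were too shallow. Their S phase high shares were 29.5% [24.4 to 35] and 14.5% [12.6 to 16.6]. CD4 T cells without Foxp3 numbered 50 and 588, of which 11 and 2 were too shallow, and the shares were 30.4% [16.7 to 47.1] and 15.8% [12.9 to 19]. Foxp3 cells numbered 29 and 166, of which 11 and 3 were too shallow. Their share was 27.3% in both tissues, [9.39 to 53] in the primary tumour and [20.6 to 34.8] in the LN. Within the LN the Foxp3 cells had 3214 CPM of the list [3094 to 3338], against 1397 CPM in CD8 and 1654 CPM in CD4 cells. In the primary tumour the Foxp3 cells were instead lower than both, with 1906 CPM [1552 to 2316] against 2882 CPM in CD8 and 3936 CPM in CD4 cells. Foxp3 cells thus had the higher level in the LN, and CD8 and CD4 cells in the primary tumour. The cells with none of these genes or a mix of them, 161 in the primary tumour and 1645 in the LN, were S phase high in 13.7% [7.36 to 22.6] and 15.4% [13.7 to 17.3], which overlapped. Of these cells 71 and 17 were too shallow to be used. The summed levels of this group were 1828 CPM [1650 to 2020] and 1353 CPM [1321 to 1387], the former overlapping that of the primary tumour Foxp3 cells. Median depths ran from 1047 UMIs in the none or mixed group to 1890 in CD8 cells in the primary tumour, and from 2592 to 3726 in the LN groups.

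The main comparison asked whether cancer cells of the LN differed from those of the primary tumour in replication genes. As a group the genes were slightly higher in the LN, with 2244 against 2055 CPM, and the change was uneven. Of the 40 genes, 26 were above a log2 ratio of 0 and 14 below, with intervals wholly above 0 for 22 and wholly below for 11, against 27.4% and 51.4% of all genes. The median was 0.15, against -0.19 for all 10741 genes measured in these cells, and 31 of the 40 lay above that. More than 2-fold higher were 2 genes and more than 2-fold lower 0, against 4.62% and 9.37% of all genes. The size depended on the scale. For the mean of single-cell CPM the median was 0.34 with 7 genes more than 2-fold higher, against 5.48% of all genes, and relative to the median of all genes it was 0.34 with 4 higher, against 6.63%.

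Gins2, a subunit of the active helicase, had the largest ratio, with 56.8 CPM in the LN and 26.4 CPM in the primary tumour, a log2 ratio of 1.11 [1.00 to 1.21]. Prim1 followed at 62.3 and 30.5 CPM (1.03 [0.93 to 1.13]). Tyms had 54 and 28.6 CPM (0.91 [0.81 to 1.02]). Then came the checkpoint genes, with Clspn, an adaptor of the kinase Chk1, at 58 and 32.9 CPM (0.82 [0.72 to 0.91]) and Tipin at 73.7 and 42.5 CPM (0.80 [0.71 to 0.88]). Chaf1b, a subunit of chromatin assembly factor 1, was also at 0.80, with 23.7 and 13.6 CPM.

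At the low end, E2f8 had 15.4 CPM in the LN and 29.6 CPM in the primary tumour, a log2 ratio of -0.94 [-1.12 to -0.78]. Usp1 had 38.3 and 55.5 CPM (-0.53 [-0.64 to -0.42]). Mcm5 and Mcm2 followed, with 40.3 and 54.8 CPM (-0.44 [-0.55 to -0.34]) and 43.5 and 56.5 CPM (-0.38 [-0.48 to -0.27]). Pcna had 179 and 232 CPM (-0.37 [-0.42 to -0.32]). The MCM genes were therefore split, since Mcm3, Mcm4, Mcm6 and Mcm7 had ratios from 0.15 to 0.33, although the 6 proteins form a single ring. In S phase high cells alone Mcm3 and Mcm7 were instead at -0.09 and -0.08.

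By role, all 6 loading and firing genes were above 0, with a median of 0.33, and 5 of the 8 repair and checkpoint genes, with a median of 0.32. The median was 0.33 for the 4 nucleotide supply genes, 0.16 for the 6 MCM genes, 0.08 for the 8 chromatin genes and -0.01 for the 7 polymerase and lagging strand genes. The subunits of ribonucleotide reductase differed in direction, with Rrm2 at 0.45 and Rrm1 at -0.15, and the direction of Rrm1 turned under 3 of 11 alternatives. Within the polymerase group the primase gene Prim1 and the polymerase alpha gene Pola1 differed in direction, at 1.03 and -0.26 [-0.43 to -0.09], although their products form 1 complex. The direction of Pola1 turned under 1 alternative, and that of Prim1 under none.

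Among other genes of the pathway, the 46 other replication genes had a median of 0.11 with 29 above 0, and 0 were past 2-fold in either direction. Thymidine kinase Tk1 (0.81), the histone chaperone Asf1b (0.76) and the licensing factor Cdt1 (-0.10) were among them. The 32 mitosis genes had a median of 0.07 with 20 above 0, and 0 past 2-fold. Above the median of all genes, -0.19, lay 38 of the 46 and 26 of the 32. Of the 20 measured E2F and G1 control genes, 8 were above 0 and 11 above the median of all genes. Their median was -0.15 and 1 was more than 2-fold lower, Cdk2, at 20.8 and 44.4 CPM (-1.09 [-1.24 to -0.95]). The cyclin E gene Ccne1 (0.88 [0.76 to 1.00]) and E2f1 (0.73 [0.63 to 0.83]) were higher in the LN, while Ccnd1, which encodes cyclin D1, was lower (-0.89) and so was Cdkn1a (-0.81).

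**Figure D4:**
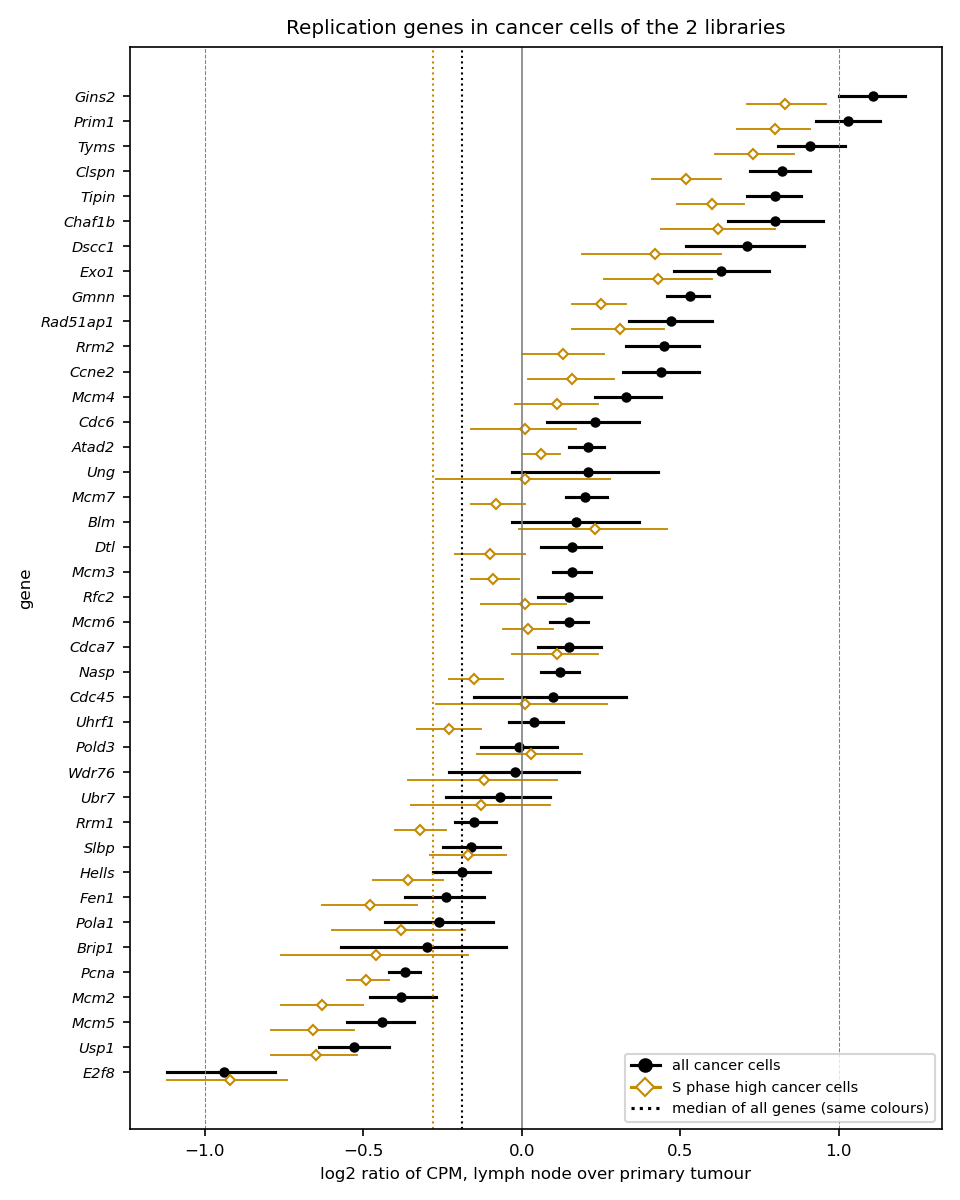
Log2 ratio of LN over primary tumour CPM (horizontal axis) for each of the 40 genes (vertical axis, ordered) in all cancer cells (black circles) and in S phase high cancer cells (yellow diamonds), with 95% counting intervals as lines. Dotted lines mark the medians of all genes (-0.19 and -0.28) and dashed lines 2-fold. E2f8 is lowest in both at -0.94 and -0.92, and Gins2 is highest in both at 1.11 and 0.83.

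Next, the sites were compared within cells of a like S phase count, a choice that used these genes, so the levels are a description. In S phase high cells (219 in the LN and 1452 in the primary tumour) the summed level was 4012 CPM in the LN and 4158 CPM in the primary tumour. The median log2 ratio was 0.01, against -0.28 for 9659 genes, with 22 genes above 0 and 0 past 2-fold in either direction, where 3.26% of all genes were higher and 10.1% lower. Gins2 (0.83), Prim1 (0.80) and Tyms (0.73) were still highest, and E2f8 (-0.92), Mcm5 (-0.66), Usp1 (-0.65) and Mcm2 (-0.63) lowest. In the other cancer cells the median was 0.18, against -0.16 for 10361 genes, of which 4.51% were more than 2-fold higher and 9.31% lower. In them 3 genes were more than 2-fold higher (Gins2, Prim1 and Clspn) and E2f8 was lower at -1.61 [-2.02 to -1.24], with 4.6 and 14.1 CPM.

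The S phase high state was concentrated in some clusters of cancer cells at each site, and most cancer cells of the 2 sites lay in different clusters. In the primary tumour, clusters 3 (1520 cells) and 10 (514 cells) were 70% and 48.4% S phase high at 4060 and 2686 CPM, while clusters 1, 6, 7 and 14 had shares from 3.25% to 7.88%. In the LN, cluster 15 (269 cells) was 65.1% S phase high at 3711 CPM and cluster 17 (244 cells) 10% at 881 CPM, and cluster 7 (49 cells) 4.73%. Clusters 15 and 17 held no more than 3 primary tumour cells, so site and cluster cannot be told apart. The level per cell was spread widely, from 262 CPM at the 10th percentile to 4570 CPM at the 90th in the primary tumour and from 273 to 5131 CPM in the LN, with medians of 810 and 1703 CPM.

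The genes were detected together in single cancer cells. Cells were thinned to 5000 UMIs and, for each gene, ranked by the sum of the other 39. All 40 genes were higher in the 1348 primary tumour cells with the highest sums than in the 2697 with the lowest, with log2 ratios from 1.51 to 6.14 and a median of 3.46. In the LN (149 against 299 cells) the median was 3.28 and 38 genes ran from 1.41 to 5.83, while Rad51ap1 and Cdc45 had 72 and 21 UMIs against none. Many other genes were also higher, and 48.3% of 11614 genes with at least 10 drawn UMIs had an interval above 0 in the primary tumour and 17.5% of 9528 in the LN, with all genes ranked by the sum of the 40. Clspn (6.14), Rad51ap1 (6.12) and Rrm2 (5.77) had the highest ratios in the primary tumour, while Pold3 (1.51), Ubr7 (1.52), Cdca7 (1.68), Rfc2 (1.73) and Slbp (1.76) had the lowest. Across the 38 genes detected in both groups the ratios of the libraries had a Pearson correlation of 0.82, a description over genes that share their depth and sorting rule. Genes with and without an E2F word in their promoter had medians of 3.86 and 3.43 in the primary tumour and 3.21 and 3.33 in the LN.

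Replication and mitosis genes were also detected together. Of 5394 primary tumour cancer cells, 24% had at least 10 of 5000 UMIs from both lists, 8.68% from the replication genes only, 5.91% from the mitosis genes only and 61.4% from neither. Of 599 LN cancer cells the shares were 34.1%, 12.2%, 8.18% and 45.6%. Cells high for a single list served to order the genes. In the primary tumour 34 of the 40 genes were higher in cells high for the other replication genes only than in cells high for the mitosis genes only, by their intervals, against 14% of all 11614 genes, with a median log2 ratio of 1.12.

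Ung had the highest ratio, 31.3 against 2.5 CPM (log2 3.49 [2.23 to 5.56]), then Cdc6 with 60.4 against 7.45 CPM (2.96, with a lower bound of 2.17) and Ccne2 with 62.2 against 12.3 CPM (2.31 [1.66 to 3.09]). In the LN, Ung had 35.6 CPM and Cdc6 63.9 CPM against no UMI in the 49 cells high for mitosis genes only, which allows up to 12.2 CPM, and Ccne2 had 63 against 23.5 CPM. Blm, a helicase of recombination repair, at -0.28 [-1.17 to 0.63], Tyms at -0.04 [-0.52 to 0.46] and Rrm1 at 0.26 [0.04 to 0.49] had the lowest ratios, and the intervals of Blm and Tyms included 0. Rrm1 had 186 against 155 CPM and Tyms 37 against 37.8 CPM. In the LN, from 73 and 49 cells, 18 intervals lay above 0, against 3.41% of 9528 genes, and the median was 0.82 with the 3 genes at 0 (Ung, Cdc6 and Cdc45) set to the bound that 3 counts allow. Across the other 37 genes the ratios of the libraries had a Pearson correlation of 0.46.

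**Figure D5:**
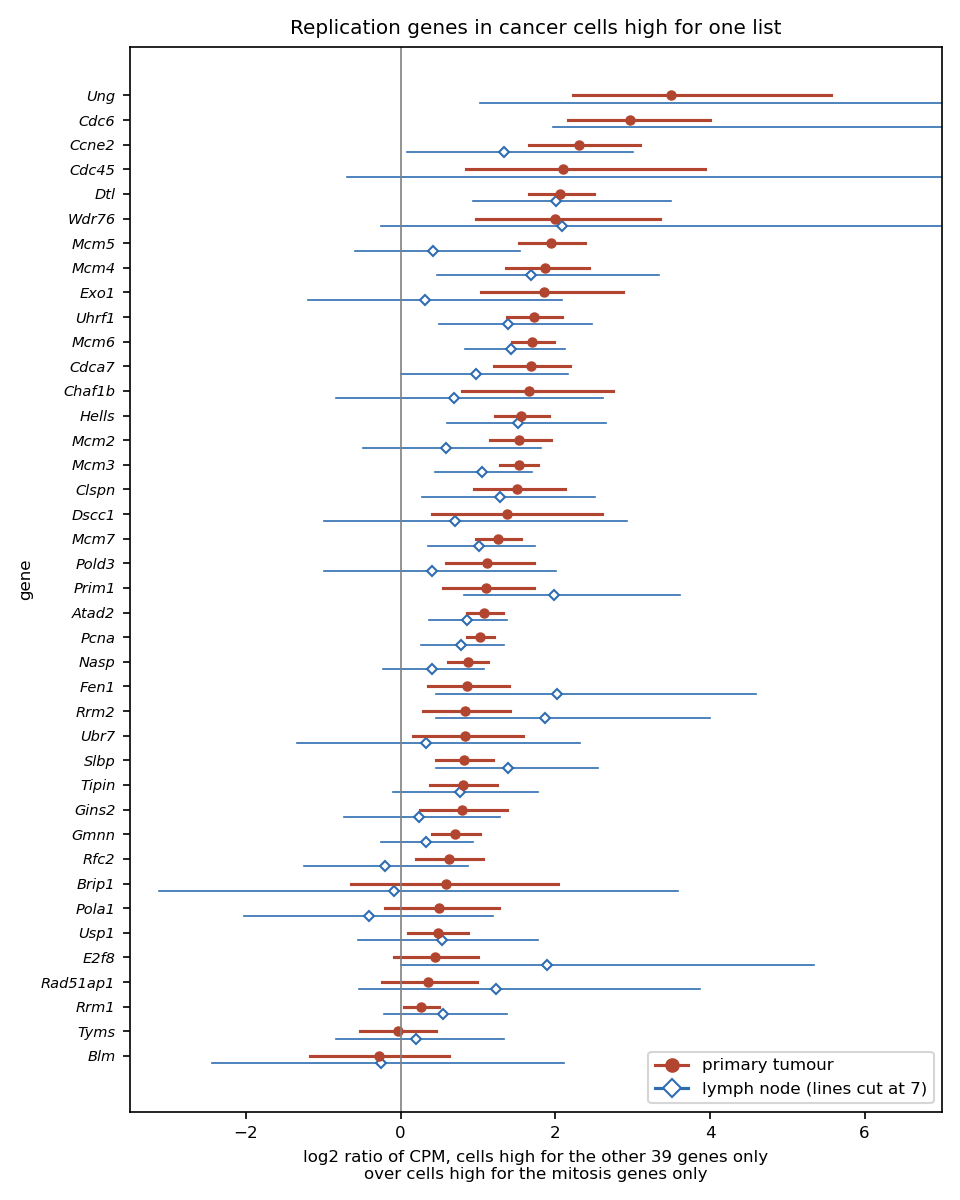
Log2 ratio of CPM in cancer cells high for the other replication genes only over cells high for the mitosis genes only (horizontal axis) for each of the 40 genes (vertical axis), in the primary tumour (red circles) and the LN (blue diamonds), with 95% counting intervals as lines, cut at the right edge. The LN points of Ung, Cdc6 and Cdc45, which had no UMI in the mitosis group, are left out and only their intervals are drawn. Ung and Cdc6 lie at the upper end with 3.49 and 2.96 in the primary tumour, and Blm at the lower end with -0.28.

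Outside all lists, the 5 genes whose level followed the summed list most closely over the 15 pairs of class and library were Hmgb3 (Pearson correlation of log2(CPM + 10) 0.943), Lrwd1 (0.941), Sgo1 (0.935), Spag5 (0.935) and Lsm5 (0.927). Lrwd1 is a partner of the origin recognition complex, and Sgo1 and Spag5 act in mitosis. The genes of the list themselves ranged from 0.965 for Mcm3 and 0.961 for Mcm7 to 0.481 for Slbp and 0.467 for Ung. These pairs share libraries and depth, and no p-value is given. The 40 genes lay on 17 chromosomes in GRCm38, at most 5 of them on the same one, chromosome 5. For Nasp, Pcna and Tyms the annotation names 4 processed copies, none of which was in the count table, so their reads may have been shared with such copies.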

How the data were processed

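The deposited files held raw UMI counts per gene and cell for 2 libraries, which the authors made with Cell Ranger and did not normalise. The file headers name Cell Ranger 5.0.0, the submitters' processing notes Cell Ranger 2.1.1, and the build was GRCm38. From these counts, a cell was kept if it had more than 200 genes detected but no more than 6000, and no more than 5% of its UMIs were mitochondrial. Doublets were called with Scrublet at an expected rate of 6%. In the LN the automatic threshold called 0 cells, so the 616 cells with scores past the 94th percentile were dropped, as were 391 called in the primary tumour. Cells were clustered in scanpy 1.11.5 (2000 variable genes per library without the fixed gene lists, 30 components, 15 neighbours, resolution 1.0, with replication and mitosis scores regressed out) and named from markers, so class names are rebuilt here and may differ from those of the study. Levels are summed UMIs per 1000000, for classes with at least 20 cells. Shares used the exact chance of at least 3 member UMIs among 1000 drawn UMIs. Ratios needed at least 100 UMIs in either library, with 0.5 added to each count. All members could be named. Named by rule were the 5 highest and 5 lowest ratios in cancer cells, the gene with most UMIs of each role, those whose highest class differed from that of the list, and the 5 genes outside all lists most like it, among genes with at least 500 UMIs. Other genes named were chosen after their values were seen. The members and lists were chosen with earlier results of these data known. The calculations were tested on simulated data and ran in Python 3.11.15 with matplotlib 3.10.9, igraph 0.11.9, scikit-learn 1.9.0, pandas 2.3.3, anndata 0.12.19, scipy 1.17.1 and numpy 2.4.6. Alternatives changed the filters, clustering, thinning, cut and list, and some were chosen after seeing the data. A withheld item is not reported here.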

Additional observations from a re-analysis of the deposited data

Results flagged for a closer look

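Cells left out of the comparisons for having over 6000 detected genes held a high level of replication genes, above that of the neutrophils. Of 842 such cells in the primary tumour 58.9% [55.5 to 62.3] were S phase high, at a median of 47784 UMIs and 3288 CPM, and of 964 in the LN 59.2% [56 to 62.3], at 62848 UMIs and 3286 CPM. Without the limit the LN held 1308 cancer cells and 393 endothelial cells, against 610 and 192 with it, and the primary tumour 6743 cancer cells against 6122. The part of doublets in these cells was not tested.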

How the results depend on the processing

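Each tissue was 1 library, so no replicate could be left out and no result had a test. No paired analysis was possible because the labels give each tissue a single library. Shares of S phase high cells moved with the cut, the thinning and the list. With at least 2 member UMIs in 1000 they were 36.9% in primary tumour cancer cells, 48% in LN cancer cells, 45% in primary tumour T cells, 36.7% in LN T cells, 29% in LN B cells and 73.9% in LN endothelial cells. With at least 5 they were, in the same order, 11.7%, 16.5%, 13.2%, 2.61%, 1.27% and 30.7%. Without the Mcm genes they were 18.5%, 26.5%, 19.6%, 11.8%, 6.89% and 45.6%, and with 35 genes 17%, 25.8%, 16.4%, 2.63%, 2.11% and 40.6%. At 2000 UMIs, primary tumour cancer cells had 22.7%, primary tumour T cells 39.3%, LN T cells 7.52% and LN B cells 5.17%. Without the upper limit on detected genes, cancer cells had 28.2% in the primary tumour and 45.9% in the LN, and with 10% mitochondrial UMIs allowed the primary tumour had 23.2%. With doublets kept, the large T cell cluster of the primary tumour took no name, and its remaining T cells had 62.4%. In cancer cells the median log2 ratio of LN over primary tumour was 0.34 with the mean of single-cell CPM (7 genes more than 2-fold higher), 0.34 relative to all genes (4 higher) and 0.01 in S phase high cells (0 higher), and 1 gene was more than 2-fold lower in the other cancer cells. In T cells the median was -2.01 with doublets kept (28 genes lower) and -0.54 without cluster 22 (7 lower). In cancer cells no ratio of more than 2-fold in the main setting changed sign, but 16 of the 40 single gene ratios, all at most 0.30 in size, did so under at least 1 setting. Single genes of T cells were not followed across settings. Of their ratios past 2-fold, those of Clspn (4.98 CPM in the LN and 3.3 CPM in the primary tumour) and Brip1 (5.57 and 1.1 CPM) turned without cluster 22. Of the ratios of single genes in cancer cells under these settings, 298 stayed within their counting interval and 137 moved beyond it. Depth limits the shares most in neutrophils, where 247 of 310 primary tumour cells were too shallow.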
